A study of Rattus norvegicus with 4 samples.

Results

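The genes described here encode the subunits of oxidative phosphorylation, the machinery of the inner mitochondrial membrane that turns the energy of food into ATP. They were chosen by name: gene probes whose name on the array began with Nduf, Sdha to Sdhd, Uqcr, Cox4 to Cox8, Cyc1, Cycs or Atp5. The rule matched 86 of the 41012 gene probes, for 72 genes. Of these, 83 probes for 71 genes were kept, out of 28417 kept probes in all, by a signal clearly over background on 2 or more of the 4 arrays. The 83 kept probes cleared the background on all 4. The 3 probes not kept were 1 for Cox6b1 and 2 of the 3 for Cox8b. The Cox6b1 probe, Cox6b on the array, was matched through an old name and may not measure that gene. Its low signal therefore does not show that Cox6b1 is not expressed. Of the 71 genes, 67 were counted as subunits: 30 of complex I, 4 of complex II, 6 of complex III, cytochrome c itself, 13 of complex IV and 13 of the ATP synthase. Complex IV here includes Cox7a2l, which joins complexes III and IV. The other 4 match the name only: Ndufaf1, an assembly factor of complex I, Emc8 (Cox4nb on the array), part of a complex of the endoplasmic reticulum, Dmac2l (Atp5s) and the pseudogene transcript Cox6c-ps1 (Cox6c1).

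Small intestine without Peyer's patches, the lymphoid clusters of the gut wall, was taken from individual male Wistar rats, an outbred stock. For the 2 compost rats the drinking water held 1% (v/v) compost extract, and the 2 control rats drank plain tap water. Both groups were 3 weeks old at the start and were kept on their water for 12 weeks. The extract was compost diluted 100-fold in water and kept at 60 °C with air for at least 10 h. Total RNA of each rat was hybridised to 1 one-colour Agilent array. The labels do not say which stretch of the intestine was sampled.

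Electrons from NADH enter the respiratory chain at complex I and those from succinate at complex II, pass through ubiquinone, complex III and cytochrome c, and reach oxygen at complex IV. The proton gradient built on the way drives the ATP synthase. Except for a few encoded by mitochondrial DNA, the subunits are made from nuclear genes and must be made in proportion, and many of their genes share promoter elements for the factors NRF-1, NRF-2 (GABP, an ETS factor) and the estrogen-related receptors. Absorptive enterocytes, which spend ATP on taking up nutrients, are rich in mitochondria.

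The promoters below stand for the 5 complexes and show the shared elements. Each sequence is the 120 bases before the annotated start of the gene, 5′ to 3′ on the gene's strand, from RefSeq (GRCr8). Capitals mark matches on either strand to the NRF-1 motif (GCGCA, any base, then GCGC) or to CCGGAAG (ETS core), so an ETS core on the other strand appears as CTTCCGG.
Ndufv3, complex I, chr20:9613666-9613785, plus strand, with 1 NRF-1 match: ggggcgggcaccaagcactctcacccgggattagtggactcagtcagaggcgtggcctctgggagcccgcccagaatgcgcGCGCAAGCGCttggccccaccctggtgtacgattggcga
Sdha, complex II, chr1:30764433-30764552, plus strand, with 2 NRF-1 matches: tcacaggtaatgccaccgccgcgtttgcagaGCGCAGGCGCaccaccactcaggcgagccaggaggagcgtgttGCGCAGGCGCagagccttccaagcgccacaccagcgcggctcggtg
Uqcrc2, complex III, chr1:184599120-184599239, plus strand, with 2 ETS matches: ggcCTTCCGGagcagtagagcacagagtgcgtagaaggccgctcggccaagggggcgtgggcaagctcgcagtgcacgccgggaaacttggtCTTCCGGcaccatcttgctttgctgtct
Cox8a, complex IV, chr1:213833624-213833743, minus strand, with 2 ETS matches: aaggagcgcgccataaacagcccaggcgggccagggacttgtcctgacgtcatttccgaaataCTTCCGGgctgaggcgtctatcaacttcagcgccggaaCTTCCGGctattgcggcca
Atp5me, ATP synthase, chr14:1464740-1464859, plus strand, with 1 match of each: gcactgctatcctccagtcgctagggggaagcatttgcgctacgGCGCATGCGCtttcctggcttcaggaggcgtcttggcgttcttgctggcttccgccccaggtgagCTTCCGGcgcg

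RefSeq promoters were found for 58 of the 67 subunit genes. In the 250 bases before the start, on either strand, the NRF-1 letters were present in 11 of the 58 promoters (19%), against 1256 of all 33469 promoters in the table (3.75%). The ETS core was present in 16 of 58 (27.6%), against 2434 of 33469 (7.27%). TGACCTT, the letters bound by estrogen-related receptors, was present in 5 of 58 (8.62%), against 1336 of 33469 (3.99%). Atp5me was the 1 subunit gene that held the NRF-1 and the ETS letters, and 29 of the 58 held none of the 3 motifs. A match is a description of the letters and does not show that a factor binds there.

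Compost extract was compared with plain water over the subunits, and the subunit genes were close to level between the groups. Every level below is a log2 intensity relative to the 75th percentile of its array, and every difference is compost minus control in log2 units. Over the 83 probes the median difference was -0.038, a median fold of 0.974, and over all 28417 kept probes it was -0.022. The differences of 73 of the 83 probes were smaller than 0.2 in size. The median size of a difference was 0.061 over the members and 0.150 over all kept probes. The members are bright, and the middle range of their brightness was mean levels of 2.56 to 6.38, a range chosen for comparison after the values were seen. There the median size was 0.053 over 41 members and 0.107 over 3666 other kept probes. The median difference there was -0.038 over the members, with 70.7% lower in the fit, and 0.013 over the other probes, with 46.8% lower.

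No subunit passed the test, limma over all kept probes with Benjamini-Hochberg adjustment at 0.05. The smallest adjusted p of a member was 0.9997, and 0% of all kept probes passed (0 of 28417, with a smallest adjusted p of 0.102). At an unadjusted p under 0.05, 1 of the 83 member probes was called, for Cox6b2, which was higher, against 913 of all kept probes (3.21%) in either direction and 1.41% higher. Both compost rats were above both control rats for 6 of the 83 probes (7.23%), against 12.3% of all kept probes. Both compost rats were below both control rats for 10 of the 83 (12%), against 15.6% of all kept probes, so neither share exceeded its background. With quantile normalization 18.1% of the members were below, against 14.1% of all kept probes, and 13.3% above, against 14.2%. Small negative differences were frequent: 60 of the 83 probes (72.3%) were lower in the fit, against 54.2% of all kept probes, and with median centring the members' median difference was 0.000.

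The width of the intervals sets what these 4 arrays can show. The standard error of a member's difference was between 0.172 and 0.410 with a median of 0.192, against 0.224 over all kept probes. The 95% interval reached 0.505 to either side at the median, and lay within a 2-fold change in both directions for 80 of the 83 probes (96.4%), against 71.6% of all kept probes. In the brightness range given above it did so for all 41 members and for 90.2% of the 3666 other probes. Changes smaller than those intervals could not be seen with 2 rats per group, and a p above the threshold does not show that the groups were alike.

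**Figure D1:**
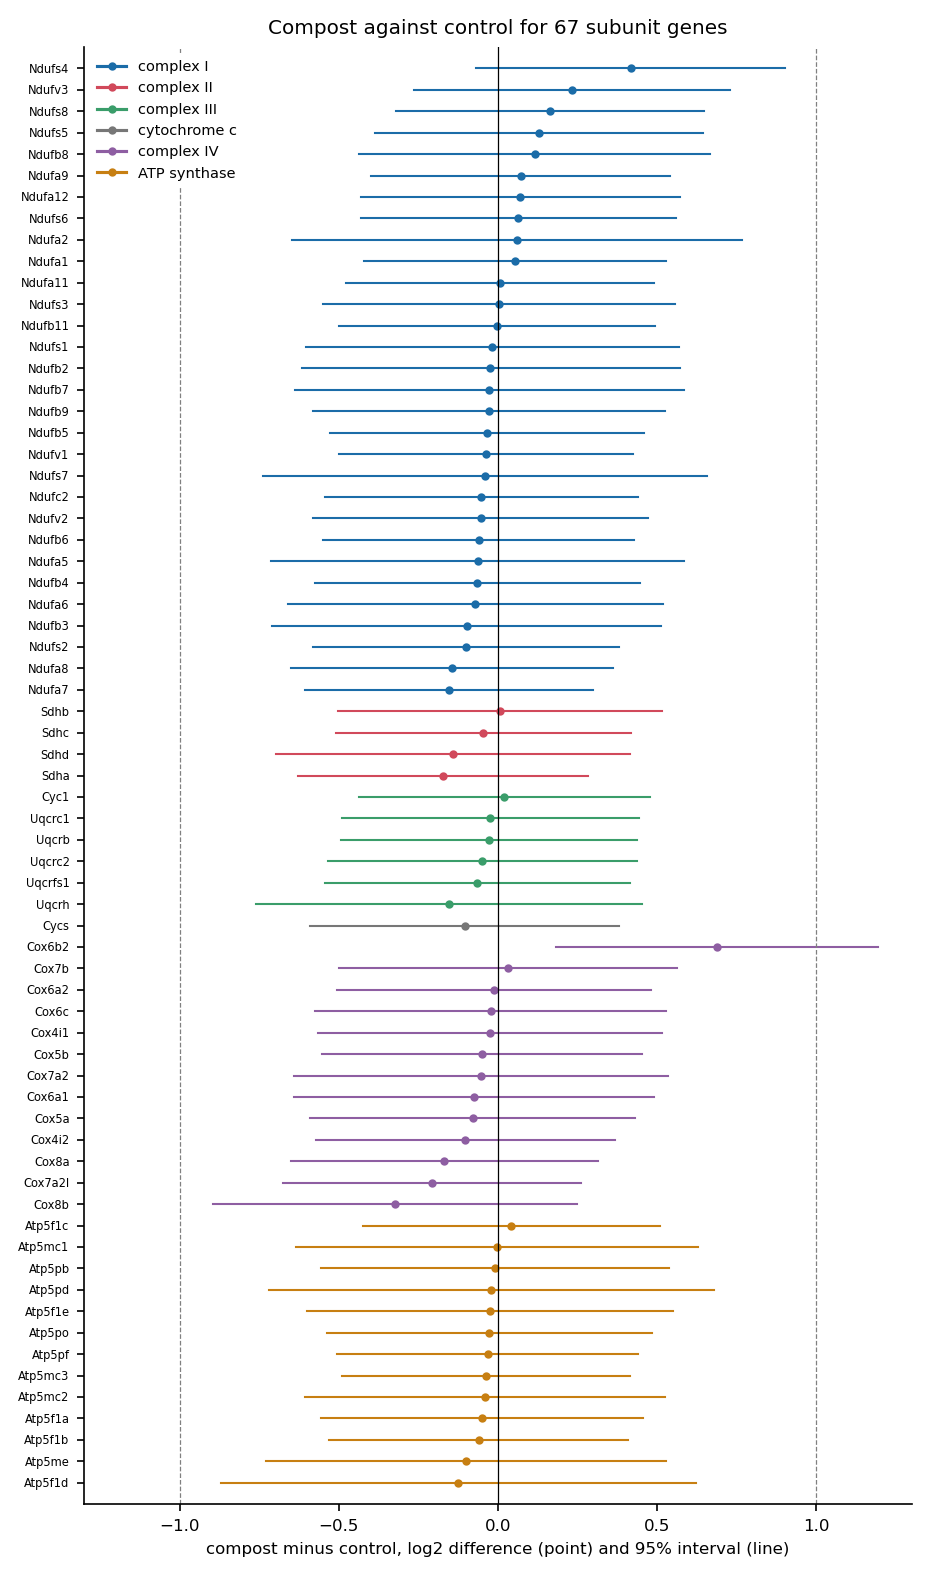
Compost minus control log2 difference (horizontal axis) for the 67 subunit genes (rows), grouped and coloured by complex, each gene shown by its brightest probe. Points are limma differences, lines their 95% intervals, and dashed lines a 2-fold change. The intervals of 66 of the 67 genes cross 0, and Cox6b2 at 0.69 is the exception.

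Complex I takes electrons from NADH in its matrix arm and pumps protons through its membrane arm. Its 36 probes had 16 differences above and 20 below 0, with a median of -0.021 that was 0.006 with quantile normalization and 0.017 with median centring. By gene, the median difference was -0.038 over the 7 core catalytic subunits, 0.064 over the 9 accessory subunits of the matrix arm (6 higher and 3 lower in the fit) and -0.028 over the 14 accessory subunits of the membrane arm (4 higher and 10 lower).

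Ndufs4, an accessory subunit of the matrix arm needed for a stable enzyme, had the smallest unadjusted p of complex I. Its levels were -3.80 and -3.89 in the compost rats, against -4.35 and -4.17 in the control rats, a difference of 0.42 ± 0.18 (SE, n = 2 rats each), with an adjusted p of 0.9997 in the limma fit. Both compost rats were above both control rats, and with normexp background correction the difference was 0.14. Ndufv3 (Ndufv3l on the array), a small accessory subunit beside the NADH site, had 3.80 and 4.03 in the compost rats and 3.71 and 3.66 in the control rats. Its difference of 0.23 ± 0.19 did not pass, and again the groups did not overlap.

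Ndufs8, a core subunit that carries iron-sulfur clusters, had 2.10 and 2.29 in the compost rats and 2.06 and 1.997 in the control rats, a difference of 0.16 ± 0.18. Its other probe differed by 0.23, and for both probes the compost rats lay above the control rats. Ndufs5, an accessory subunit of the membrane arm (Ndufs5b on the array), had 4.79 and 5.06 in the compost rats and 4.75 and 4.84 in the control rats, so the groups overlapped. These genes gave the positive end of complex I, and none of them passed.

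At the negative end stood Ndufa7, with 1.74 and 1.73 in the compost rats and 1.89 and 1.88 in the control rats. Its rats of each group were nearly level and the groups did not overlap, yet its difference of -0.15 ± 0.17 was smaller than its standard error, which limma draws partly from all probes. Ndufa8 had 3.43 and 3.60 in the compost rats and 3.76 and 3.56 in the control rats, with overlap. Ndufc2 was the 1 gene with kept probes of opposite sign: -0.053 for its brightest probe and -0.10 and 0.028 for the other two. Ndufb3 differed by -0.099 in its brightest probe and by -0.48 ± 0.41 in a dimmer one, whose levels were -3.03 and -1.98 in the compost rats and -2.24 and -1.81 in the control rats. That probe, the dimmer Cox5a probe (-0.30 ± 0.41) and Cox6b2 were the 3 whose intervals passed a 2-fold change.

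Complex II, succinate dehydrogenase, also works in the citrate cycle and is the 1 complex with all 4 of its subunits here. Sdha, the flavoprotein that oxidises succinate, had 6.997 and 7.06 in the compost rats and 7.19 and 7.21 in the control rats, and both compost rats were below both control rats. Its difference was -0.17 ± 0.17 (SE, n = 2 rats each) and did not pass. Sdhb, the iron-sulfur subunit, had 6.36 and 6.63 in the compost rats and 6.50 and 6.47 in the control rats, a difference of 0.006. The membrane anchors Sdhc and Sdhd differed by -0.047 and -0.14 with overlap between the groups. Sdhd was at 6.12 and 6.48 in the compost rats and 6.40 and 6.49 in the control rats, where compost 1 alone was low.

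Complex III passes electrons from ubiquinol to cytochrome c. All 6 of its genes overlapped between the groups, with 1 difference above and 5 below 0 and a median of -0.039. Uqcrh, the hinge protein that helps cytochrome c dock, had 6.97 and 7.43 in the compost rats and 7.40 and 7.31 in the control rats. Compost 1 was the lowest and compost 2 the highest of the 4 rats, and the difference of the means was -0.15 ± 0.23. Uqcrfs1, the Rieske iron-sulfur protein, Uqcrc2, a core protein, and Uqcrb, a small structural subunit, differed by -0.066, -0.049 and -0.029.

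Cytochrome c, the soluble carrier between complexes III and IV that also takes part in apoptosis, had 3 kept probes under the name Cycs. The brightest had 6.55 and 6.74 in the compost rats and 6.72 and 6.78 in the control rats, a difference of -0.10 ± 0.18 with overlap, and of -0.007 without compost 1. The other two differed by -0.17 and -0.19, and for each both compost rats were below both control rats. The probes share a gene and the 4 RNA samples, so they do not count as separate evidence, and none passed.

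Complex IV, cytochrome c oxidase, reduces oxygen to water, and several of its nuclear subunits exist as isoforms for different tissues. Its 15 probes had 2 differences above and 13 below 0, with a median of -0.054. The general subunits were near level. Cox4i1 had 4.71 and 5.05 in the compost rats and 4.95 and 4.86 in the control rats, a difference of -0.025. Cox6a1 and Cox7a2 differed by -0.075 and -0.054 and Cox7b by 0.031, each with compost 1 the lowest and compost 2 the highest of the 4 rats.

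Cox8a, the general form of the smallest subunit, had 6.63 and 6.82 in the compost rats and 6.88 and 6.91 in the control rats, a difference of -0.17 ± 0.18. Cox7a2l, a protein that joins complexes III and IV into supercomplexes, had 4.69 and 4.82 in the compost rats and 4.98 and 4.94 in the control rats, a difference of -0.21 ± 0.18. For these genes both compost rats were below both control rats, and the differences were about as large as their standard errors. Neither passed.

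The largest differences of the complex were those of Cox6b2 and Cox8b, isoforms known from other tissues. Cox6b2, the testis form, had -4.53 and -4.29 in the compost rats and -5.04 and -5.16 in the control rats, a difference of 0.69 ± 0.19 (SE, n = 2 rats each) with an unadjusted p of 0.018 and an adjusted p of 0.9997 in the limma fit. Both compost rats were above both control rats, and with normexp background correction the difference was 0.21. Cox8b (Cox8h on the array), the heart and skeletal muscle form, had -4.93 and -4.60 in the compost rats and -4.32 and -4.55 in the control rats, a difference of -0.32 ± 0.22. Cox4i2, the lung form, and Cox6a2, the heart and muscle form, differed by -0.10 and -0.013. Of 8 kept markers of striated muscle, 5 were higher and 3 lower in the fit, with a median difference of 0.12 (0.005 with normexp, -0.005 without control 2). The range was -0.51 for Myl1 to 0.82 for Myh2. Myl1 exceeded background in 1 compost rat and both control rats, and Myh2 in both compost rats and 1 control rat. The mean level of the 8 markers was -2.77 and -2.88 in the compost rats and -3.09 and -2.83 in the control rats. The part of striated muscle in the values of the muscle forms was not tested.

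The ATP synthase has a catalytic head and stalk (F1), a peripheral stalk and a membrane ring of c subunits that turns with the proton flow. Its 15 probes had 1 difference above and 14 below 0, with a median of -0.038 (-0.000 with median centring) and a range of -0.12 to 0.042. Atp5f1b (Atp5b on the array), the catalytic beta subunit, had 6.11 and 6.25 in the compost rats and 6.24 and 6.25 in the control rats, a difference of -0.061. Atp5f1a (Atp5a1), the alpha subunit, had 5.93 and 5.73 in the compost rats and 5.97 and 5.80 in the control rats, a difference of -0.051 ± 0.19. For both genes the groups overlapped.

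Atp5f1d (Atp5d), the delta subunit of the stalk, had 4.91 and 5.59 in the compost rats and 5.32 and 5.43 in the control rats. The compost rats stood on either side of the control rats, 0.68 apart, and the difference of the means was -0.12 ± 0.28. Atp5me (Atp5i), the membrane subunit e, had 8.48 and 8.99 in the compost rats and 8.83 and 8.84 in the control rats, again on either side. The genes of the c subunit, Atp5mc1, Atp5mc2 and Atp5mc3 (Atp5g1, Atp5g2 and Atp5g3), encode the same mature protein and differed by -0.003, -0.041 and -0.038.

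Of the 4 genes that match only by name, Ndufaf1 had 0.059 and -0.030 in the compost rats and -0.29 and -0.31 in the control rats, a difference of 0.32 ± 0.17 that did not pass. Emc8 differed by 0.19, Dmac2l by -0.040 and Cox6c-ps1 by -0.21, each with overlap between the groups. Leaving the 4 out left 79 probes with the same median of -0.038. Of these, 5 were above (6.33%) and 10 below (12.7%) without overlap, against 12.3% and 15.6% of all kept probes.

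The larger pattern over the members lay between the rats of the compost group, a comparison that was not planned beforehand and has no test. Compost 2 was higher than compost 1 for 71 of the 83 probes (85.5%), against 54.9% of all kept probes. The median of compost 2 minus compost 1 was 0.23 over the members and 0.054 over all kept probes, and the median of every complex was above 0, between 0.14 in complex III and 0.28 in the ATP synthase. Between the control rats, control 2 was higher for 38 of the 83 probes, against 55.2% of all kept probes, with medians of -0.011 and 0.033. The median size of the gap between rats was 0.24 in the compost group and 0.055 in the control group over the members, against 0.31 and 0.18 over all kept probes.

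**Figure D2:**
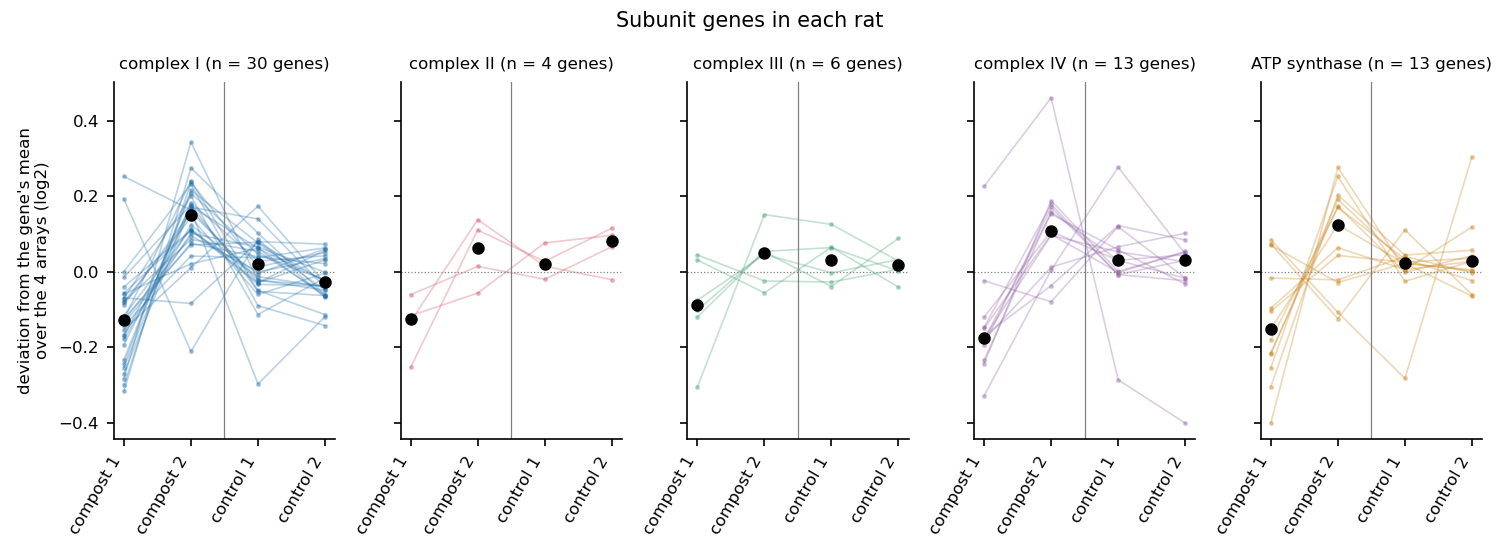
Deviation of each subunit gene from its own mean over the 4 arrays (vertical axis, log2) in each rat (horizontal axis), 1 panel per complex. Thin lines join the 4 values of a gene, black dots are medians over the genes of the complex, and a grey line parts compost from control. Compost 1 has the lowest median in every panel, at -0.13 in complex I and -0.18 in complex IV.

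For 47 of the 83 probes (56.6%) compost 1 was the lowest and compost 2 the highest of the 4 arrays, with the control rats between them. The same order held for 16.9% of all kept probes, and the reverse order for 1 member probe (1.2%) and 12.5% of all kept probes. By gene the order held for 20 of 30 in complex I, 8 of 13 in complex IV and 9 of 13 in the ATP synthase. It held for 1 of 4 in complex II and 2 of 6 in complex III, and not for Cycs. Compost 2 was above compost 1 for all 14 accessory genes of the membrane arm of complex I and for all 4 genes of complex II. Among the members that ran the other way were Ndufs1, with 2.14 in compost 1 and 1.74 in compost 2, and Atp5f1a, with the values given above. The 67 subunit genes lie on 19 chromosomes in GRCr8.

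**Figure D3:**
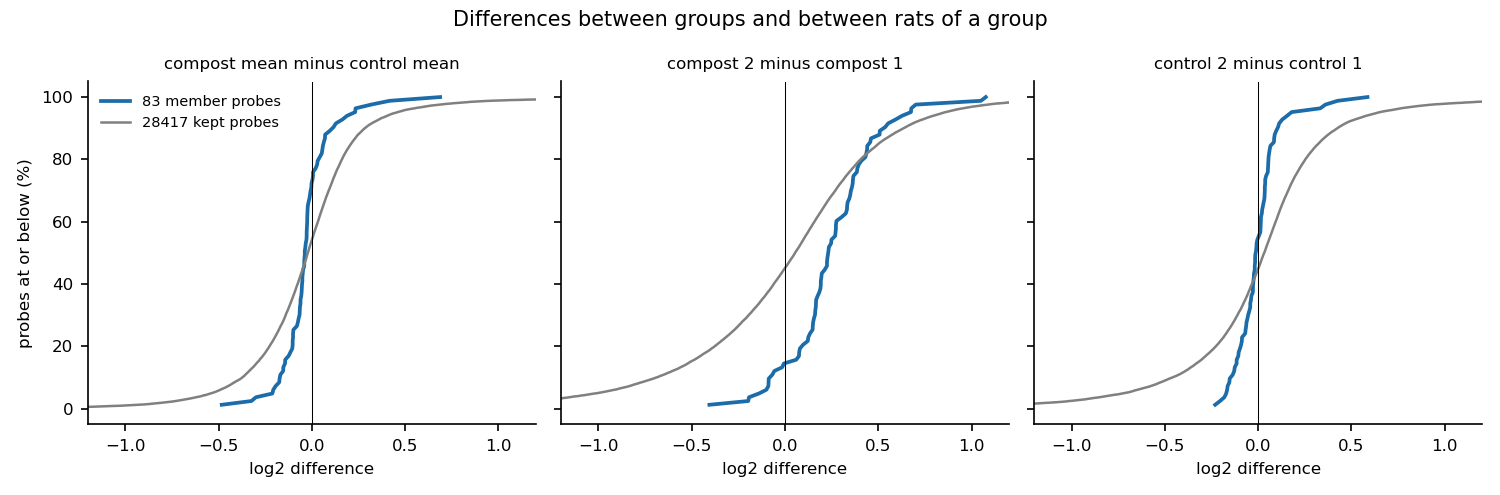
Share of probes at or below a log2 difference (vertical axis, percent) for the 83 member probes (blue) and all 28417 kept probes (grey). The panels show, from left to right, compost minus control means, compost 2 minus compost 1, and control 2 minus control 1 (horizontal axes, log2). The blue curve lies to the right of the grey one in the middle panel over most of its length, with medians of 0.23 and 0.054.

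The members are bright probes: 71 of the 83 lay above the 75th percentile by their mean over the 4 arrays. The 3666 other kept probes within the middle range of the members' brightness, mean levels of 2.56 to 6.38, also tended to be higher in compost 2 than in compost 1, in 72.2% of cases with a median of 0.16. The 41 members in that range had a median of 0.21 with 36 higher in compost 2. Compost 1 lowest and compost 2 highest held for 26% of those other probes. The compost arrays also stood farthest apart in signal, with a median intensity of 113 and 80.8, against 88.4 and 87.2 in the control rats. With quantile normalization, which gives all arrays the same distribution, compost 2 minus compost 1 was 0.079 over the members, with 56 of 83 higher, against 0.019 and 52% over all kept probes. With median centring it was 0.24 over the members and 0.060 over all kept probes, and with normexp background correction 0.21 and 0.13. The parts of signal strength, RNA quality and tissue in this gap were not tested.

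The direction of the group medians depended on which compost rat was counted. Without compost 1 the members' median difference was 0.11, and without compost 2 it was -0.17. Leaving 1 compost rat out compares the other with the controls, so these medians restate the gap between the compost rats. Without compost 1, the remaining compost rat was above both control rats for 66.3% of the member probes and below both for 16.9%. Without compost 2, 10.8% were above and 81.9% below. The same shares over all kept probes were 36.9% above and 34.3% below without compost 1, and 33% above and 43.1% below without compost 2. Leaving out control 1 gave -0.029 and leaving out control 2 gave -0.045.

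**Figure D4:**
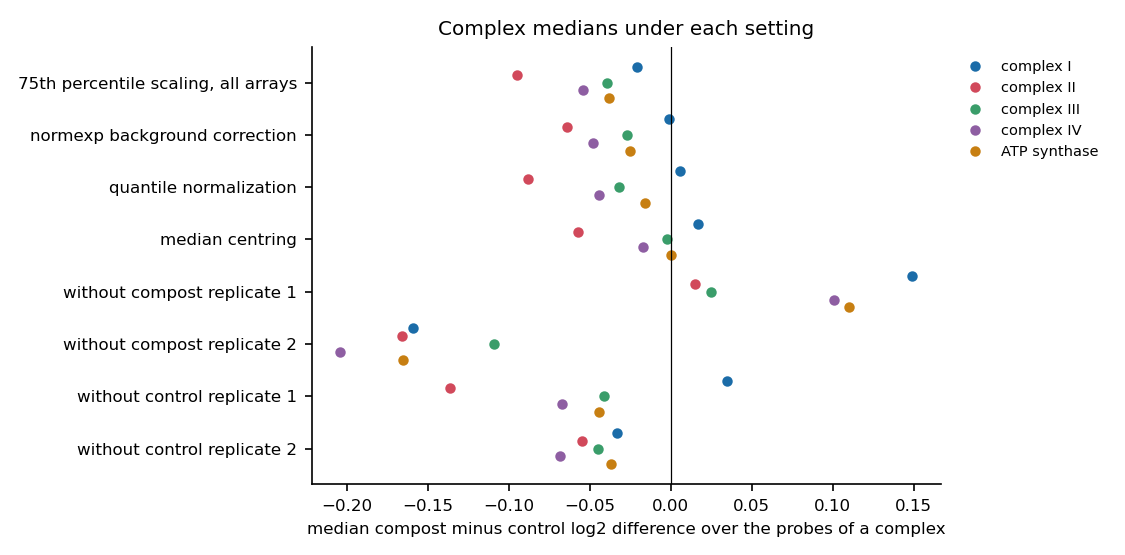
Median compost minus control log2 difference over the probes of each complex (horizontal axis; colours mark complexes) under 8 settings (rows). In the top row, 75th percentile scaling with all 4 arrays, the medians lie between -0.095 for complex II and -0.021 for complex I. All 5 lie above 0 without compost replicate 1 and below 0 without compost replicate 2.

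Genes that serve the chain without being subunits were read from lists in the same fit, and no gene of any of these lists passed the test. Of 24 kept assembly factors, 12 were higher and 12 lower in the fit, with a median difference of 0.010. Fastkd2, an RNA-binding protein of mitochondria, had 2.49 and 2.67 in the compost rats and 2.24 and 2.32 in the control rats, a difference of 0.30 ± 0.18. Cox15, which makes the heme A of complex IV, differed by -0.26. Both genes had groups that did not overlap, in opposite directions. They were named for the smallest unadjusted p of the list, a choice that favours such genes. Over the 24 genes, both compost rats were above both control rats for 3 and below for 1. The shares over all kept probes were 12.3% above and 15.6% below.

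Among 17 kept genes of mitochondrial biogenesis, 8 were higher and 9 lower in the fit, with a median of -0.010 (0.027 with median centring), and the median was -0.094 without control 1 and 0.060 without control 2. The lowest unadjusted p-values were those of a pair of coactivators of respiratory genes, Ppargc1a and Ppargc1b, while Pprc1, the other member of their family, differed by 0.085 with overlap. Ppargc1a, the coactivator PGC-1 alpha, had -4.35 and -3.82 in the compost rats and -2.53 and -3.36 in the control rats, a difference of -1.14 ± 0.37 (SE, n = 2 rats each) with an unadjusted p of 0.0289 and an adjusted p of 0.9997 in the limma fit. Ppargc1b, its relative PGC-1 beta, had 0.054 and 0.34 in the compost rats and 1.26 and 0.71 in the control rats, a difference of -0.79 ± 0.26 with an unadjusted p of 0.0341 in the same limma fit. For both genes the compost rats were below the control rats, and neither passed. Over the 17 genes, both compost rats were above both control rats for 2 and below for 5, against 12.3% and 15.6% of all kept probes. Without control 1 the differences were -0.73 and -0.52, and with normexp that of Ppargc1a was -0.68. Of the promoter factors named above, Nrf1 had no kept probe. The GABP genes Gabpa and Gabpb1 differed by -0.010 and 0.145 with overlap. Esrra, an estrogen-related receptor, had 5.80 and 5.99 in the compost rats and 6.30 and 6.07 in the control rats. Its difference of -0.29 ± 0.20 did not pass, and its groups did not overlap.

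The citrate cycle and pyruvate dehydrogenase, which feed NADH and succinate to the chain, had 5 of 20 kept genes higher and 15 lower in the fit, with a median of -0.054. Without compost 1 the list had 10 higher and 10 lower with a median of 0.001. Ogdh and Dlst, subunits of 2-oxoglutarate dehydrogenase, differed by -0.50 and -0.30. Ogdh did not overlap between the groups, whereas Dlst did, with 5.98 and 6.61 in the compost rats and 6.61 and 6.57 in the control rats, and without compost 1 Dlst differed by 0.017. Over the 20 genes, both compost rats were above both control rats for 0 and below for 3, against 12.3% and 15.6% of all kept probes. Carriers, pores and uncoupling proteins of the mitochondrial membranes had 6 of 18 higher and 12 lower, with a median of -0.075 (-0.025 without compost 1). In this list both compost rats were above both control rats for 2 of the 18 and below for 5. Ckmt1, the mitochondrial creatine kinase that hands on energy from ATP, had 5.49 and 5.58 in the compost rats and 6.04 and 6.03 in the control rats, a difference of -0.50 ± 0.17 without overlap. Ucp3, an uncoupling protein of muscle, differed by -0.62 (-0.26 with normexp) and exceeded background in 1 compost rat and both control rats.

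Ubiquinone synthesis and other electron donors had 15 of 18 kept genes higher and 3 lower in the fit, with a median of 0.058, and 10 higher and 8 lower without compost 2. Coq8a, needed for ubiquinone synthesis, differed by 0.25, and Etfdh, which passes electrons from fatty acid oxidation to ubiquinone, by -0.30. The mitochondrial ribosome, which translates the few subunits that mitochondria encode themselves, had 55 of 63 kept genes higher and 8 lower, with a median of 0.075 and no gene past the test. Both compost rats were above both control rats for 16 of the 63 and below for 3, against 12.3% above and 15.6% below over all kept probes. Mrpl38 differed by 0.32 and Mrps2 by -0.42 (-0.20 with normexp). Mrps2 exceeded background in 1 compost rat and both control rats. Without compost 2 the list had 28 higher and 35 lower with a median of -0.021, so its direction also rested on that rat.

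Glycolysis is the route to pyruvate outside mitochondria. Its list also held Pdk1 to Pdk4, the kinases of pyruvate dehydrogenase, which are not enzymes of that route. Of the 22 kept genes of the list, 12 were higher and 10 lower in the fit, with a median of 0.024. With median centring 16 were higher and 6 lower, with normexp 15 and 7, and the median was -0.008 without control 1 and 0.12 without control 2. Pfkl, the liver form of phosphofructokinase, had -1.77 and -1.58 in the compost rats and -0.97 and -0.87 in the control rats, a difference of -0.75 ± 0.19 with an unadjusted p of 0.0115 and an adjusted p of 0.9997 in the limma fit. Pfkp, the platelet form, had 3.62 and 3.97 in the compost rats and 3.28 and 3.44 in the control rats, a difference of 0.43 ± 0.21. The groups did not overlap for either gene. Over the 22 genes, both compost rats were above both control rats for 4 and below for 3, against 12.3% and 15.6% of all kept probes.

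Markers of enterocytes and of B cells had larger differences in the fit than the subunits had. In bulk tissue fewer cells of a type and less RNA per cell cannot be told apart. All 15 kept enterocyte markers were lower in the compost rats in the fit, with a median of -0.53, and 14 of the 15 were lower with quantile normalization or with median centring. Without compost 1 the list had 12 lower and 3 higher with a median of -0.23, and without control 1 the median was -0.27. Lct and Alpi, brush border enzymes of the list, did not clear the background in the 2 compost rats, so that they entered through the control rats alone. Without them all 13 genes were lower in the fit, with a median of -0.46. The mean level of these 13 was 5.12 and 5.61 in the compost rats, against 6.07 and 5.77 in the control rats. All 8 kept B cell and plasma cell markers were higher in the compost rats, with a median of 1.57. Of these, Ms4a1 and Cr2 did not clear the background in the 2 control rats, so that they entered through the compost rats alone. The other 6 had a median of 1.41, and Cd22 among them cleared the background in both compost rats and 1 control rat. Mean levels of those 6 were -1.326 and -1.115 in the compost rats, against -2.782 and -2.645 in the control rats. With normexp the median of the 8 was 0.999. Smooth muscle markers averaged 1.96 and 1.52 in the compost rats and 1.49 and 1.93 in the control rats, with a median difference of 0.12 (-0.12 without compost 1). The median was 0.17 for goblet cells and 0.11 for T cells (-0.07 and -0.44 without control 2). For macrophages and dendritic cells it was 0.39 (-0.12 without compost 1). Lists of 4 kept genes each had 0.41 for erythroid cells, 0.42 for fat and -0.19 for pancreas. No marker passed the test, and the part of tissue makeup in the subunit values was not tested.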

How the data were processed

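The deposited scanner files hold, per the file headers, linear spot intensity that the scanner software had detrended and background-subtracted, with no scaling between arrays. The software was Agilent Feature Extraction 9.1.3.1, per the submitters' processing notes. The authors' deposited value table holds the same intensity, rounded, with differences of at most 0.497% per value. Its column medians were 102 and 73.9 for compost and 80.2 and 79.4 for control. It has no log, no centring and no ratio, so scale, centring and direction were settled. The flags for signal above background, saturation and outliers came from the deposited scanner files.

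Of 45018 spots per array, 1639 controls and 7 to 11 outlier spots were left out; no member spot was an outlier or saturated. The share of gene spots with a signal over background was 66.5% to 71% per array. Values were log2 of the deposited intensity, averaged per probe, minus each array's 75th percentile. Group differences were fitted with limma 3.58.1 (lmFit, eBayes, R 4.3.3), two-sided, without covariates, adjusted by Benjamini-Hochberg over all kept probes, and the fit was tested on simulated data. All 4 arrays lay on 1 slide with 1 scan, compost at positions 3 and 4 and control at positions 1 and 2, so position and group cannot be told apart. Having 2 arrays per group limits the precision.

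The brightest kept probe stood for a gene. Old names were updated through the RefSeq table of GRCr8: accession named 51 of the 86 member probes, symbol 29 and synonym 6. Over all probes, 21488 of 41012 kept the file's name. Genes were named by smallest unadjusted p per complex (6 for complex I, up to 4 for the others) and per list (2), plus isoform sets and genes with probes of opposite sign. Ndufs1, Ndufb3, Cox5a, Pprc1, Gabpa, Gabpb1, Esrra and the genes that match by name only were named after their values were seen. The members and lists were chosen with earlier results of these data known. The comparisons between rats of a group were not planned beforehand, and the brightness range was chosen after the values were seen. Alternatives were normexp background correction (offset 50), quantile normalization, median centring, the deposited table, other filters on dim probes, trended robust eBayes, a replicate block and leaving out each array. Promoter letters were searched in RefSeq sequences.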

Additional observations from a re-analysis of the deposited data

How the results depend on the processing

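No member passed under any alternative run. Over all kept probes 1 passed with normexp, and between 0 and 3 when 1 array was left out (3 without control 2). Member probes above the controls without overlap were 11 with quantile normalization and 7 to 55 when 1 array was left out. Those below were 15 and 14 to 68. The single array left in a group makes non-overlap easier. Without control 1, 8.43% of the members were above and 20.5% below, against 21.7% and 29.2% of all kept probes. Without control 2, 12% were above and 21.7% below, against 28.2% and 29.4%. Shares for quantile normalization and without each compost rat are given above. The medians with 1 array left out were -0.167 to 0.110 over all members, -0.159 to 0.149 in complex I, -0.166 to 0.015 in complex II, -0.109 to 0.025 in complex III, -0.204 to 0.101 in complex IV and -0.165 to 0.110 in the ATP synthase. Compost 2 minus compost 1 over the members was 0.079 with quantile normalization, an alternative added after seeing the data. Of 33 named genes, the difference turned for 15 without compost 1, for 4 without compost 2 and for 3 without each control. The differences of these genes with 1 array left out spanned 0. In complexes I and II they were -0.150 to 0.045 for Ndufc2, -0.007 to 0.266 for Ndufs5, -0.129 to 0.141 for Sdhb and -0.325 to 0.039 for Sdhd. In complex III they were -0.090 to 0.032 for Uqcrb, -0.127 to 0.028 for Uqcrc2, -0.154 to 0.021 for Uqcrfs1 and -0.382 to 0.075 for Uqcrh. In complex IV they were -0.191 to 0.140 for Cox4i1, -0.273 to 0.122 for Cox6a1, -0.126 to 0.101 for Cox6a2, -0.270 to 0.161 for Cox7a2 and -0.132 to 0.194 for Cox7b. In the ATP synthase they were -0.149 to 0.048 for Atp5f1a, -0.135 to 0.013 for Atp5f1b, -0.463 to 0.214 for Atp5f1d, -0.257 to 0.251 for Atp5mc1, -0.235 to 0.153 for Atp5mc2 and -0.355 to 0.152 for Atp5me. Another 9 named genes kept their direction but moved by over 1.5 times with 1 array left out: -0.246 to -0.042 for Ndufa8, 0.067 to 0.259 for Ndufs8, 0.116 to 0.349 for Ndufv3, -0.090 to -0.004 for Sdhc, -0.204 to -0.007 for Cycs, -0.171 to -0.035 for Cox4i2, -0.265 to -0.073 for Cox8a, -0.491 to -0.158 for Cox8b and -0.059 to -0.017 for Atp5mc3. The values of the pathway and marker lists under other scalings, filters and without an array were also added after seeing the data. Among the scalings, Atp5mc1 turned with normexp (0.006), quantile normalization (0.027) and median centring (0.035), Atp5me with quantile normalization (0.074), and Cox4i1 (0.012), Cox6a2 (0.025) and Uqcrb (0.008) with median centring; the causes were not tested. The labels share only a replicate number: deviations of compost 1 and control 1 correlated at -0.036 over 28417 probes, and the fit with the replicate block called 0 probes, 0 of them members, and turned none of the 33 named genes. With a single pair of rats per group and dim isoform probes, effects smaller than the intervals given above are not resolved.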
